A study of Mus musculus with 7 samples.

Results

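The 10 genes described here set the G1 restriction point: the D-type cyclins Ccnd1, Ccnd2 and Ccnd3, their kinases Cdk4 and Cdk6, the inhibitors Cdkn1a, Cdkn1b, Cdkn2a and Cdkn2b, and the target Rb1. They were taken by gene symbol, each matching 1 of the 50600 genes in the tables. Transcripts had been counted in 3 control mammary glands and in 4 mammary carcinomas of mice carrying an ECD transgene. The tumours were adenosquamous carcinomas 1a and 1b, a spindle cell carcinoma (tumour 3) and a papillary carcinoma (tumour 4). The submitters call the glands and the tumours independent, and each tumour was sampled at its centre. For these mice the sources give no control genotype, strain or age, no promoter for the transgene, and no word on a shared animal behind tumours 1a and 1b. The p-values therefore measure the spread between these libraries. The mouse Ecd gene was at 12.7 to 19.1 CPM (the unit is explained below) in glands and 15.9 to 21.8 CPM in tumours, and whether its row counts transgene transcripts is not known here.

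In G1, D cyclins bind CDK4 or CDK6, and the active kinase phosphorylates the retinoblastoma protein, which then releases E2F factors that switch on S phase genes. INK4 inhibitors (from Cdkn2a and Cdkn2b) block CDK4 and CDK6 directly, while the CIP/KIP proteins p21 (Cdkn1a) and p27 (Cdkn1b) bind cyclin-CDK complexes. In the mammary gland, cyclin D1 is known to be needed for lobuloalveolar growth in pregnancy and is a common driver of breast tumours.

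RNA amounts are given in CPM, counts relative to library size, after TMM scaling, a method that evens out composition between libraries. Totals ran from 5148436 to 35631302 counts, with gland 1 the shallowest. Mitochondrial genes took 48.4% to 64.8% of counts in glands and 18.3% to 32.6% in tumours. Fat cell markers summed to 2650 to 4535 CPM in glands and 6.99 to 119.6 CPM in tumours, and 6 of 6 fell; Cidec and Lep were at 0 in tumour 1b, and Adipoq, Cidec and Retn in tumour 3. Skeletal muscle markers (0 of 6 passed) summed to 12810 and 24850 CPM in glands 1 and 3 but 19.5 CPM in gland 2, and to 0.836 to 189.4 CPM in tumours. Luminal markers summed to 208.5 to 400.0 CPM in glands and 228.8 to 2230 CPM in tumours, and basal markers to 64.4 to 238.2 and 93.5 to 1719 CPM (1 of 6 rose in each list, and Krt17 was at 0 in gland 1). Macrophage and neutrophil markers (5 of 6 tested, 0 passed) summed to 17.3 to 58.6 CPM in glands, 213.4 and 475.3 CPM in the adenosquamous tumours, 34.0 CPM in tumour 3 and 71.8 CPM in tumour 4. In bulk tissue, fewer cells of a type and less RNA per cell cannot be told apart.

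Promoter windows, from 250 bases before to 50 bases after a start site, were matched in RefSeq (GRCm38.p6) for 7 of the 10 genes: Ccnd3, Cdk4, Cdk6, Cdkn1a, Cdkn1b, Cdkn2a and Cdkn2b. Those of Cdk4, Cdkn2a and Cdkn2b are shown because Cdk4 was higher in every tumour and the neighbouring Cdkn2 genes were high in the adenosquamous pair. Capitals mark CACGTG (the E-box), GGGCGG (the GC box), TTTCCCGC and TTTGGCGC (E2F-type letters) and TGACGTCA (the CRE), searched on both strands; adjoining matches may overlap.
Cdk4, chr10:127063285-127063584, plus strand: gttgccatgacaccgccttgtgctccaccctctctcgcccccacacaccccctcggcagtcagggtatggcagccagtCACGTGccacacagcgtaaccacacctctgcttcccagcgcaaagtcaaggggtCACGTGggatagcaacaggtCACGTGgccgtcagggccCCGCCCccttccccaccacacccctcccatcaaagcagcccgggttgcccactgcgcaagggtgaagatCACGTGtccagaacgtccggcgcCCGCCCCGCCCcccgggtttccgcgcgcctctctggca
Cdkn2a upstream start (p19Arf transcript), chr4:89294570-89294869, minus strand: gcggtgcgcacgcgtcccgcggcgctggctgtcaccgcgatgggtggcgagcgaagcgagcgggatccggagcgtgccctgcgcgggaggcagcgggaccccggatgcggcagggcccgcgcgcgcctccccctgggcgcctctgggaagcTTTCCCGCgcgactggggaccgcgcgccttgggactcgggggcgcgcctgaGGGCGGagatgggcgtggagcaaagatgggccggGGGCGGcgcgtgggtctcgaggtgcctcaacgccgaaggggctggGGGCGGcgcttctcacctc
Cdkn2a inner start (p16Ink4a transcript), chr4:89282143-89282442, minus strand: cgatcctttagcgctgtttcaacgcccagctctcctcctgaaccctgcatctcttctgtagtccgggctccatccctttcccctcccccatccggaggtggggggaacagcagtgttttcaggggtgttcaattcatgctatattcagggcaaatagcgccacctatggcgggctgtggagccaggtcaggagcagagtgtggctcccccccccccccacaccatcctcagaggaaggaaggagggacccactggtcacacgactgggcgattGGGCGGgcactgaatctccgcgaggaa
Cdkn2b, chr4:89310983-89311282, minus strand: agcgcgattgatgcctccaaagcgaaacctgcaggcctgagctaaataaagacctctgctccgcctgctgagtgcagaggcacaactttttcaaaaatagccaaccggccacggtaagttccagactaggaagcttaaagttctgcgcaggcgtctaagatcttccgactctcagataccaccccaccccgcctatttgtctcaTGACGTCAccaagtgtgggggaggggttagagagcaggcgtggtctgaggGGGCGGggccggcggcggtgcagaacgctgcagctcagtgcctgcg
The Cdk4 window held 4 CACGTG and 3 GGGCGG matches, and Cdk6 held 1 CACGTG match. Of all 32851 windows of this length, 7.15% held CACGTG and 35.7% held GGGCGG. The upstream Cdkn2a window held 1 TTTCCCGC (in 1.07% of windows) and 3 GGGCGG matches, and the inner one 1 GGGCGG. Cdkn2b held 1 TGACGTCA (in 1.79% of windows) and 1 GGGCGG. No window of the 7 genes held TTTGGCGC (in 0.514% of windows).

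Which G1 control genes differ between tumours and glands was tested in a fit over all genes. Ccnd1 rose and Rb1 fell. Of the 9 members that passed the filter on low counts, 1 rose, 1 fell and 7 did not pass (edgeR, adjusted p under 0.05). Over all 14149 genes tested, 8.47% passed, 3.90% as higher and 4.57% as lower. The median log2 fold change was 1.35 over these 9 members and 0.12 over all genes. Cdkn2a was not kept by the filter. In Ccnd1 and Cdk4 every tumour lay above every gland, and in Rb1 every tumour lay below. Over all genes tested, 16.3% had every tumour above and 13.2% every tumour below.

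**Figure D1:**
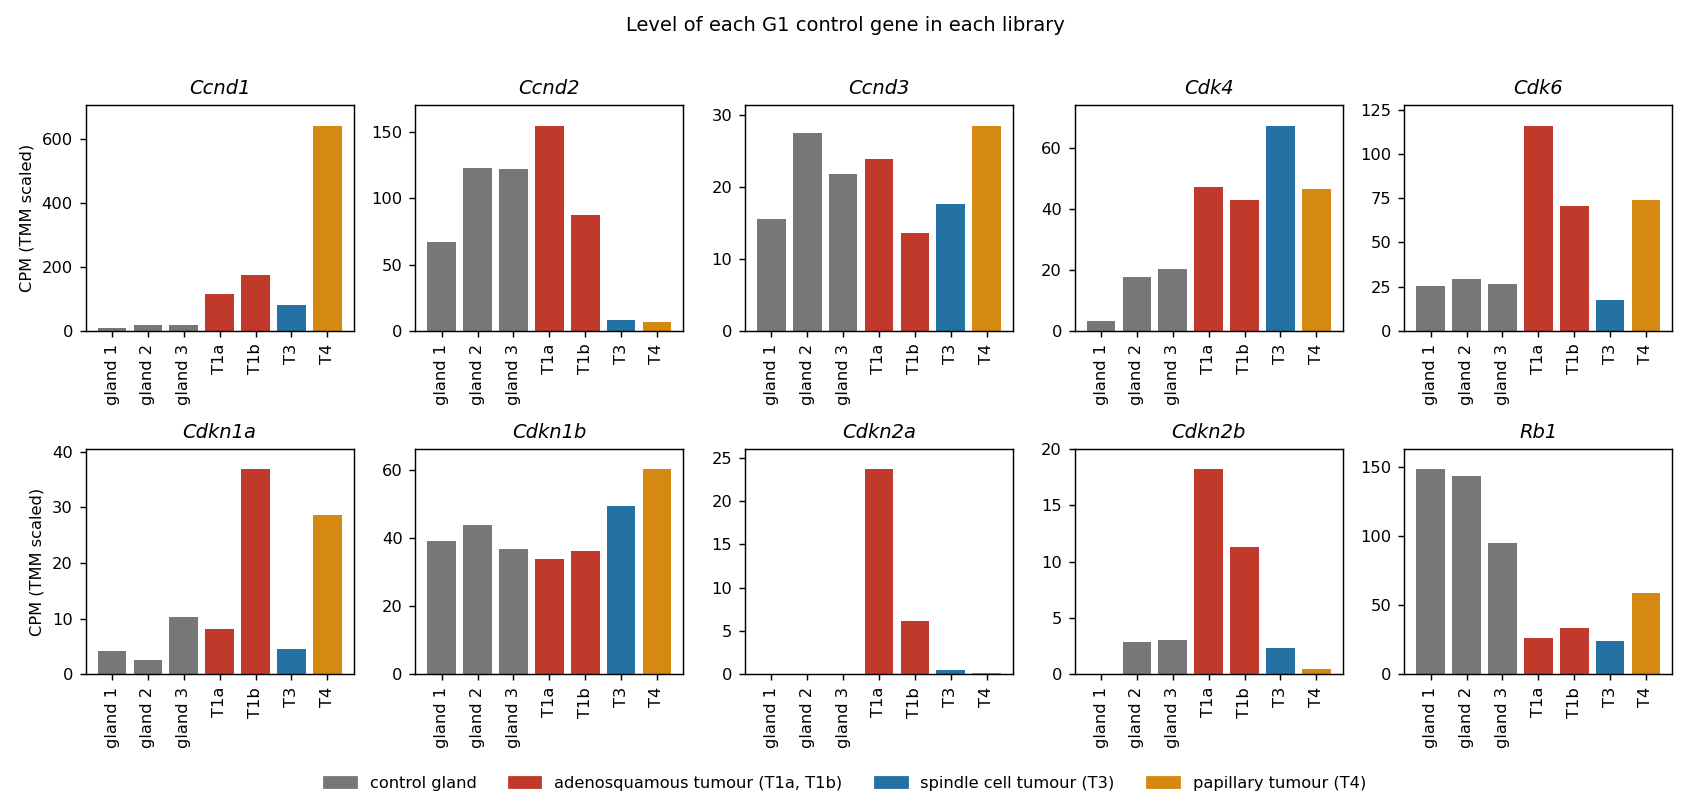
TMM-scaled CPM of each of the 10 genes (vertical axes, linear, 1 scale per gene) in the 3 glands (grey), adenosquamous tumours T1a and T1b (red), spindle cell tumour T3 (blue) and papillary tumour T4 (orange). Each bar is 1 library. Ccnd1 reached 642.1 CPM in T4, Ccnd2 was at 8.08 and 6.62 CPM in T3 and T4, and for Rb1 each tumour bar is below each gland bar.

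Among the cyclins, Ccnd1 (ENSMUSG00000070348, chromosome 7, 144929931 to 144939925, GRCm38, minus strand) encodes cyclin D1. It was at 8.13, 17.7 and 18.8 CPM in glands 1, 2 and 3. The adenosquamous tumours reached 116.3 CPM (1a) and 174.1 CPM (1b), tumour 3 reached 79.8 CPM and tumour 4 reached 642.1 CPM. All 4 tumours lay above all 3 glands, and the papillary tumour stood far above the rest. The means were 14.8 ± 5.84 CPM (SD, n = 3) and 253.1 ± 262.3 CPM (SD, n = 4; log2 fold change 4.08, SE 0.88, edgeR adjusted p = 0.0343). The adenosquamous pair alone was 9.26-fold above the glands (log2 3.21, SE 0.42, adjusted p = 0.0189). The call over 4 tumours was lost without gland 1, 2 or 3 or tumour 1b (adjusted p = 0.122, 0.0990, 0.124 and 0.0669), with log2 values of 3.83 to 4.28. Without the papillary tumour it was held at log2 2.99 (adjusted p = 0.0153), and with mitochondrial genes left out at log2 4.07 (adjusted p = 0.0353). That of the pair was lost without gland 3, tumour 1a or tumour 1b (adjusted p = 0.0544, 0.0603 and 0.0865). Oraov1, which overlaps Ccnd1 on the opposite strand, was at 2.83 to 7.16 CPM in glands and 8.38 to 11.04 CPM in tumours, and the library kit does not mark strand.

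Ccnd2 (ENSMUSG00000000184, chromosome 6, 127125162 to 127152193, minus strand), the gene of cyclin D2, differed among the tumours. Its level was 67.2, 123.1 and 122.2 CPM in glands 1, 2 and 3. Tumour 1a had 154.8 CPM and tumour 1b 87.1 CPM, whereas the spindle cell carcinoma had 8.08 CPM and the papillary one 6.62 CPM. Tumour 1a thus lay above the glands and 1b within their range, and tumours 3 and 4 differed from the gland mean by -3.61 and -3.90 log2 units. Neither the 4 tumours (log2 -0.70, SE 1.03, edgeR adjusted p = 0.684) nor the adenosquamous pair (log2 0.16, SE 0.41, adjusted p = 0.825) passed against glands, and the difference between tumour types, with 1 library each for 2 of them, was not tested. Fibroblast markers (6 genes; 0 rose and 1 fell) summed to 400.0 to 1196 CPM in glands, 4422 and 1131 CPM in tumours 1a and 1b, and 233.9 and 185.6 CPM in the spindle cell and papillary tumours. Endothelial markers (0 of 6 passed) summed to 208.3 to 324.5 CPM in glands, 234.4 and 116.5 CPM in the adenosquamous pair and 62.8 and 36.1 CPM in the other tumours. Lymphocyte markers (2 of 6 tested, 0 passed) summed to 6.72, 122.3 and 3.08 CPM in glands 1, 2 and 3, 66.4 CPM in tumour 1a and 1.36 to 2.58 CPM in tumours 1b, 3 and 4. The part of these cell types in the Ccnd2 pattern was not tested.

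Ccnd3 (ENSMUSG00000034165, chromosome 17, 47505051 to 47599691, plus strand), the gene of cyclin D3, was similar throughout. The glands had 15.6, 27.6 and 21.8 CPM, and the tumours, in the order 1a, 1b, 3 and 4, had 23.9, 13.6, 17.6 and 28.5 CPM. The groups overlapped almost fully (log2 -0.05, SE 0.34, edgeR adjusted p = 0.933). Bysl, which overlaps its end on the opposite strand, was at 9.34 to 15.4 CPM in glands and 9.66 to 17.0 CPM in tumours. The processed pseudogene Ccnd3-ps held 2 counts in the papillary tumour and 0 in every other library.

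D cyclin transcripts were mostly Ccnd2 in the glands and mostly Ccnd1 in the tumours. As counts per kb of exon within each library, Ccnd1 made up 16.2%, 18.8% and 20.5% of D cyclin transcripts in glands 1, 2 and 3. It made up 56.3%, 77.4%, 85.5% and 97.2% in tumours 1a, 1b, 3 and 4. Ccnd2 held 67.1%, 65.5% and 66.7% in the glands, against 37.5%, 19.4%, 4.33% and 0.501% in the tumours. Ccnd3 held 12.8% to 16.7% in glands and 2.32% to 10.1% in tumours. For each of these 3 shares the groups did not overlap, and the exact two-sided permutation p of 0.0571 is the smallest that 3 against 4 libraries can give (0.0762 after Benjamini-Hochberg over 4 shares). With counts not divided by length, the Ccnd3 shares overlapped (exact permutation p = 0.171) and the other shares did not. The 3 shares sum to 100, so they are not independent. Even in tumour 1a, where Ccnd2 stood above the glands in CPM, Ccnd1 was the larger share. Glands and tumours also differed in cell type markers, given above, and their part in these shares was not tested.

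**Figure D2:**
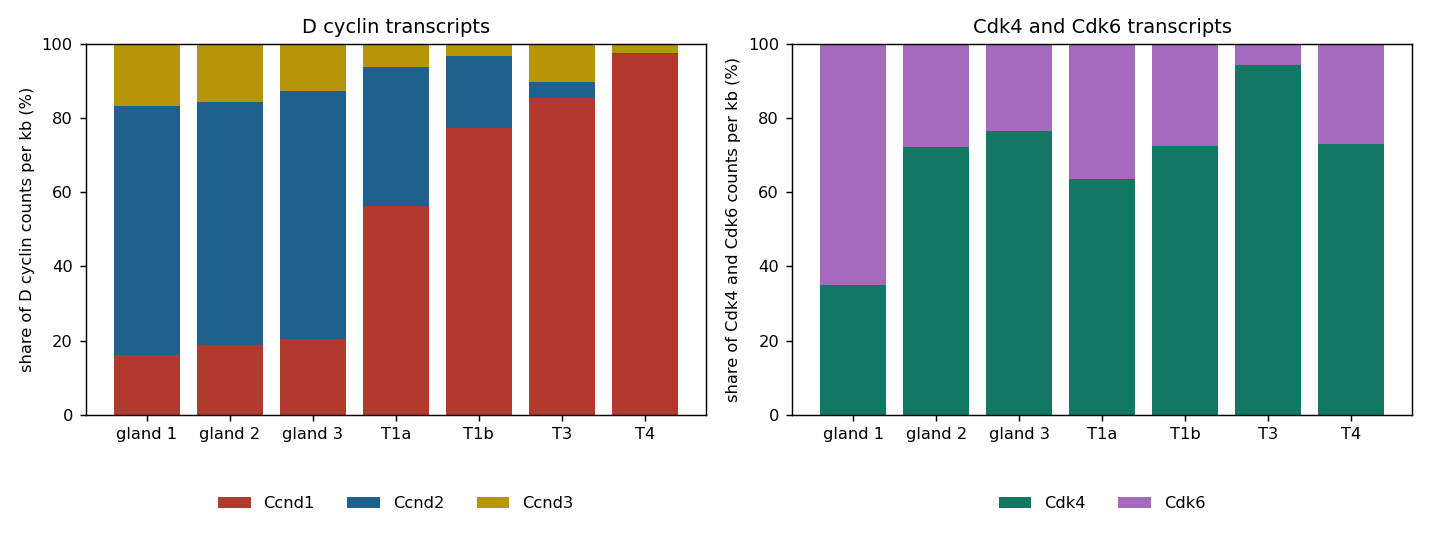
Stacked bars of the share (%, counts per kb of exon) of Ccnd1, Ccnd2 and Ccnd3 among D cyclin transcripts (left) and of Cdk4 and Cdk6 among the transcripts of both (right), 1 bar per library. The Ccnd1 share is 16.2% to 20.5% in the glands and 56.3% to 97.2% in the tumours, while the Cdk4 share overlaps between the groups.

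Of the kinases, Cdk4 (ENSMUSG00000006728, chromosome 10, 127063534 to 127067920, plus strand) was at 3.18, 17.7 and 20.2 CPM in glands 1, 2 and 3. Tumours 1a, 1b, 3 and 4 had 47.2, 43.0, 67.3 and 46.5 CPM. Every tumour lay above every gland, and the means were 13.7 ± 9.20 CPM (n = 3) and 51.0 ± 11.01 CPM (n = 4). The difference did not pass in edgeR (log2 1.87, SE 0.57, adjusted p = 0.0834), but did in DESeq2 (log2 1.88, adjusted p = 0.0103) and limma-voom (log2 1.69, adjusted p = 0.0473). The value in gland 1 rested on 9 counts, and without that gland the log2 value was 1.44. Tspan31, which overlaps Cdk4 on the opposite strand, was at 13.8 to 23.0 CPM in glands and 22.7 to 27.1 CPM in tumours.

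Cdk6 (ENSMUSG00000040274, chromosome 5, 3341485 to 3531008, plus strand), the partner kinase, differed among the tumours. Glands 1, 2 and 3 were close together at 25.5, 29.5 and 26.6 CPM. Tumours 1a, 1b and 4 had 116.0, 70.3 and 74.2 CPM, while the spindle cell tumour had 17.4 CPM, below every gland. In the adenosquamous pair Cdk6 rose 3.27-fold (log2 1.71, SE 0.31, edgeR adjusted p = 0.0291). Over all 4 tumours it did not pass (log2 1.35, SE 0.56, adjusted p = 0.163), but without the spindle cell tumour it did (log2 1.71, adjusted p = 0.0386). The pair's call was lost without gland 1 or 3 or either tumour (adjusted p = 0.0663, 0.0896, 0.133 and 0.0823). Per kb, Cdk4 made up 34.99%, 72.1% and 76.6% of the transcripts of both kinases in glands 1, 2 and 3. Its share in the tumours, in the order 1a, 1b, 3 and 4, was 63.7%, 72.5%, 94.3% and 73.0%. These shares overlapped (exact permutation p = 0.457). Their mean difference, 14.6 percentage points, was 1.52 without gland 1.

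The comparison of the adenosquamous pair shares its glands with that of all 4 tumours. Of the 9 members other than Cdkn2a, 2 rose in the pair (Ccnd1 and Cdk6), 1 fell (Rb1) and 6 did not pass. Cdkn2a, at 0 in every gland, passed the filter only through the adenosquamous libraries where it is high, so its call there is not counted. Over all 14708 genes in that comparison 10.4% passed, 5.02% as higher and 5.36% as lower. Among the 9 members other than Cdkn2a, the middle log2 fold change was that of Cdk4, 1.63, against a median of -0.04 over all genes.

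Among the INK4 genes, Cdkn2a (ENSMUSG00000044303, chromosome 4, 89274471 to 89294653, minus strand) encodes p16Ink4a and, from the upstream start shown above, p19Arf, which stabilises p53. No count fell on it in any gland. Tumours 1a and 1b held 278 and 45 counts (23.7 and 6.12 CPM), and the spindle cell and papillary tumours 5 counts each (0.493 and 0.174 CPM). The floor was taken as 3 counts over the 3 glands (0.0539 CPM). With the counts of both adenosquamous tumours pooled (16.9 CPM), the pair was at least 314-fold higher. Of the 323 pooled counts, 278 were from tumour 1a. Tumour 1a alone was at least 439-fold higher and tumour 1b at least 114-fold. No p-value is given, since the filter kept the gene only through these tumours. The floor of a single gland was 1.06, 0.0946 and 0.142 CPM for glands 1, 2 and 3, so levels like those of the spindle cell and papillary tumours could not have been seen in gland 1. The transcripts Cdkn2a-201 and Cdkn2a-202 share 575 of their 852 and 895 exonic bases, and the tables give 1 value for both, so p16Ink4a and p19Arf transcripts cannot be told apart.

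Cdkn2b (ENSMUSG00000073802, chromosome 4, 89306299 to 89311039, minus strand), the neighbouring gene of p15Ink4b, showed a similar order among the tumours, but not against the glands. It was at 0, 2.90 and 3.03 CPM in glands 1, 2 and 3, the 0 with a floor of 1.06 CPM. Tumours 1a, 1b, 3 and 4 had 18.2, 11.3, 2.36 and 0.488 CPM. The adenosquamous pair lay above every gland, but neither comparison passed in edgeR (pair log2 2.69, SE 0.88, adjusted p = 0.106; 4 tumours log2 1.90, SE 1.29, adjusted p = 0.361). The pair passed in DESeq2 (adjusted p = 0.0132) and in edgeR with no filter (0.0313). Mtap, within 500 kb of Cdkn2a, was at 13.1 CPM on average in glands and at 37.4, 21.8, 27.4 and 1.64 CPM in tumours 1a, 1b, 3 and 4. Fibroblast markers, listed above, were also highest in tumour 1a, and their part in the Cdkn2a level was not tested.

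Of the CIP/KIP genes, Cdkn1a (ENSMUSG00000023067, chromosome 17, 29090976 to 29100727, plus strand), a p53 target, was uneven. Glands 1, 2 and 3 had 4.24, 2.58 and 10.2 CPM. Tumours 1b and 4 had 36.9 and 28.7 CPM, above every gland, while tumours 1a and 3 had 8.17 and 4.53 CPM, within their range. It did not pass over 4 tumours (log2 1.76, SE 0.84, edgeR adjusted p = 0.210) or in the adenosquamous pair (log2 1.90, SE 0.80, adjusted p = 0.178), where the log2 value was 0.50 without tumour 1b.

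Cdkn1b (ENSMUSG00000003031, chromosome 6, 134920401 to 134925513, plus strand), which encodes p27, stayed between 34.0 and 60.2 CPM. The glands had 39.3, 43.8 and 36.8 CPM. Tumours 1a and 1b had 34.0 and 36.3 CPM, tumour 3 had 49.5 CPM and tumour 4 had 60.2 CPM. Both adenosquamous values lay just below the glands and both others above. Neither comparison passed (4 tumours log2 0.17, SE 0.27, edgeR adjusted p = 0.710; pair log2 -0.25, SE 0.25, adjusted p = 0.537).

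Rb1 (ENSMUSG00000022105, chromosome 14, 73183673 to 73325822, minus strand), the target of the D cyclin kinases and a brake on E2F factors, fell. Glands 1, 2 and 3 had 148.6, 143.4 and 94.9 CPM, and tumours 1a, 1b, 3 and 4 had 26.0, 33.5, 24.0 and 59.2 CPM. All tumours lay below all glands, the papillary tumour nearest to them. The means were 129.0 ± 29.6 CPM (n = 3) and 35.7 ± 16.2 CPM (n = 4), a 3.61-fold fall (log2 -1.85, SE 0.38, edgeR adjusted p = 0.0293). In the adenosquamous pair the fall was 4.56-fold (log2 -2.19, SE 0.37, adjusted p = 0.0264). The call over 4 tumours was lost without gland 1, 2 or 3 or tumour 1a, 1b or 3 (adjusted p = 0.103, 0.0875, 0.0766, 0.0628, 0.0852 and 0.0705), with log2 values of -2.03 to -1.66. That of the pair was lost without gland 1 or 3 or either tumour (adjusted p = 0.0525, 0.0544, 0.141 and 0.131). Over 4 tumours the call was held with mitochondrial genes left out (log2 -1.89, adjusted p = 0.0320). The summed fat cell markers, given above, also separated all tumours from all glands, and their part in the fall was not tested. Muscle markers, also given above, summed to 12810, 19.5 and 24850 CPM in glands 1, 2 and 3, and their part was not tested. Lpar6, inside Rb1 on the opposite strand, was at 14.9 to 24.4 CPM in glands and 9.36 to 23.2 CPM in tumours, and Rcbtb2, which overlaps it too, at 18.4 to 32.0 and 16.4 to 23.5 CPM.

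**Figure D3:**
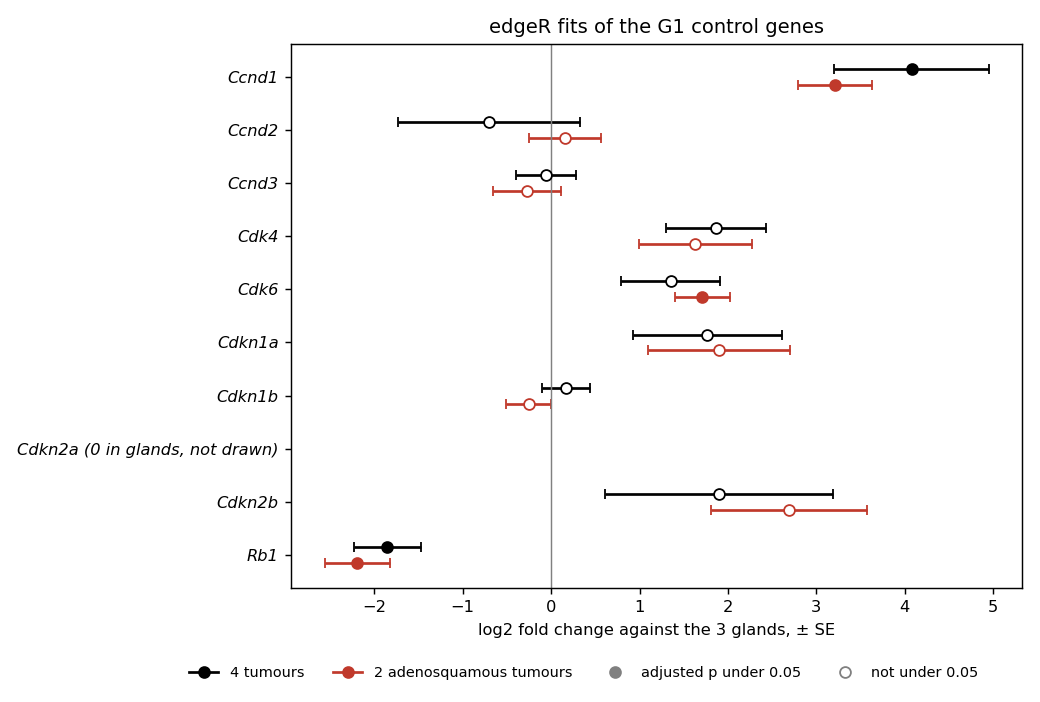
Log2 fold change against the 3 glands with its SE (horizontal axis) for 9 of the 10 genes, over the 4 tumours (black) and the 2 adenosquamous tumours (red); filled points have adjusted p under 0.05. Ccnd1 is far to the right at 4.08 and 3.21, Rb1 to the left at -1.85 and -2.19, and Cdk6 is filled for the adenosquamous pair alone.

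The spindle cell and papillary tumours are single libraries without a replicate check, and the difference between them was not tested. Of the 9 members tested, 2 (Ccnd1 and Cdk4) were above every gland and over 1 log2 unit above the gland mean in the spindle cell tumour, and 2 (Ccnd2 and Rb1) were below by the same measure. In the papillary tumour 4 were above (Ccnd1, Cdk4, Cdk6 and Cdkn1a) and 2 below (Ccnd2 and Rb1). The background over all genes tested was 19.1% above and 17.7% below in the spindle cell tumour, and 23.0% above and 21.6% below in the papillary tumour. The counts of 2 of 9 members are near these shares. The papillary tumour was 5.51 log2 units above the gland mean for Ccnd1, and the spindle cell tumour 2.51.

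Levels of different genes were compared per kb of exon within a library, scaled as in TPM to the same sum over genes in every library. On this scale Rb1 ranked first of the 10 in every gland, at 20.4, 30.8 and 15.4 in glands 1, 2 and 3, with Ccnd2 (5.90, 16.9 and 12.7) and Cdkn1b (7.13, 12.4 and 7.89) next in either order. Ccnd1 ranked first in tumours 1a, 1b and 4, at 39.9, 69.2 and 172.9. In the spindle cell tumour Cdk4 ranked first at 35.7 and Ccnd1 second at 29.2. Cdkn2a ranked second in tumour 1a at 32.6 but eighth in tumour 1b at 9.78.

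Many genes of S phase entry are known E2F targets, held down by Rb1. Of 17 genes of cyclin E, CDK2 and S phase, 11 rose, 0 fell and 6 did not pass (edgeR). Over all genes tested, 3.90% passed as higher and 4.57% as lower. The median log2 fold change was 2.34 in this list against 0.12 over all genes. Mcm3, a subunit of the replicative helicase, averaged 3.58 ± 1.39 CPM (SD) over the 3 glands against 23.1 ± 6.51 CPM over the 4 tumours, a 6.30-fold rise (edgeR adjusted p = 0.0130). Ccna2, the gene of cyclin A2, was at 0, 1.89 and 0.853 CPM in glands and 17.8 to 40.9 CPM in tumours (log2 4.94, SE 0.77, adjusted p = 0.0143). Ccne1, of cyclin E1, rose (log2 2.18, SE 0.41, adjusted p = 0.0243), whereas its kinase partner Cdk2 had a log2 value of 0.49 (SE 0.31, adjusted p = 0.331). Ccne1 and Cdk2 are named here after their values were seen. The count of 11 was 4, 4, 0, 7, 3 and 6 without gland 1, 2 or 3 or tumour 1a, 1b or 3 (edgeR; 13 of 17 at unadjusted p under 0.05 without gland 3). In the adenosquamous pair 6 of the 17 rose and 0 fell (edgeR, median log2 2.17), where 5.02% of all genes tested passed as higher. Mki67, a gene of dividing cells, was at 8.49 to 28.3 CPM in glands and 240.0 to 404.5 CPM in tumours. What part the lower Rb1 level or the mix of cell types had in these rises was not tested.

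Of 14 pocket protein, E2F and DREAM complex genes, 2 rose, 0 fell and 12 did not pass (edgeR, median log2 0.52). Among all genes tested, 3.90% passed as higher and 4.57% as lower. E2f2, an activator E2F, rose 5.39-fold (log2 2.43, SE 0.55, adjusted p = 0.0400), and Tfdp1, the DNA-binding partner of E2F factors, 2.56-fold (log2 1.36, SE 0.32, adjusted p = 0.0422). Without gland 1 or 3 or tumour 1a, 1b or 3 none of the 14 passed in edgeR (5 at unadjusted p under 0.05 in each case), and without gland 2 or tumour 4 the count was 1. Rbl1 and Rbl2, which encode the Rb1 relatives p107 and p130, had log2 values of 1.41 (adjusted p = 0.0832) and -0.34 (adjusted p = 0.560). In the adenosquamous pair none of the 14 passed (edgeR; 5 at unadjusted p under 0.05), and E2f2 had an adjusted p of 0.0739. Lin52, of the DREAM complex, had the smallest p on the lower side over 4 tumours (log2 -0.62, adjusted p = 0.342). Rbl1 and Rbl2 were named after their values were seen.

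Of the 3 CDK inhibitor genes outside the 10, Cdkn1c fell and 2 did not pass (edgeR), where 4.57% of all genes tested passed as lower. Cdkn1c, the gene of p57, was at 24.1, 16.6 and 20.9 CPM in glands and 2.38, 2.99, 2.36 and 0.523 CPM in tumours 1a, 1b, 3 and 4 (log2 -3.33, SE 0.57, adjusted p = 0.0179). The groups were wide apart, and the fall also passed in the adenosquamous pair (log2 -3.00, adjusted p = 0.0189). Over 4 tumours its call was lost without gland 1 or 3. The INK4 genes Cdkn2c and Cdkn2d, the other two, had log2 values of -1.21 (adjusted p = 0.167) and -0.19 (adjusted p = 0.847).

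Of 13 genes of cyclin D and p27 assembly and turnover, none passed in edgeR (3 at unadjusted p under 0.05; 2 passed in DESeq2 and 1 in limma-voom). Skp2, the ubiquitin ligase subunit that marks p27, had a log2 value of 1.62 (SE 0.49, adjusted p = 0.0804), and Usp2, a deubiquitinase known to act on cyclin D1, -2.37 (SE 0.79, adjusted p = 0.103). Of 10 regulators of Cdkn2a with Mdm2 and Trp53, none passed in edgeR (4 at unadjusted p under 0.05; 2 passed in DESeq2 and 0 in limma-voom). Kdm6b, a demethylase of histone H3 lysine 27, had a log2 value of 1.07 (SE 0.31, adjusted p = 0.0727), and Cbx7, of a Polycomb complex, -1.08 (SE 0.49, adjusted p = 0.194). In the adenosquamous pair none of either list passed (edgeR; 2 of each at unadjusted p under 0.05).

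**Figure D4:**
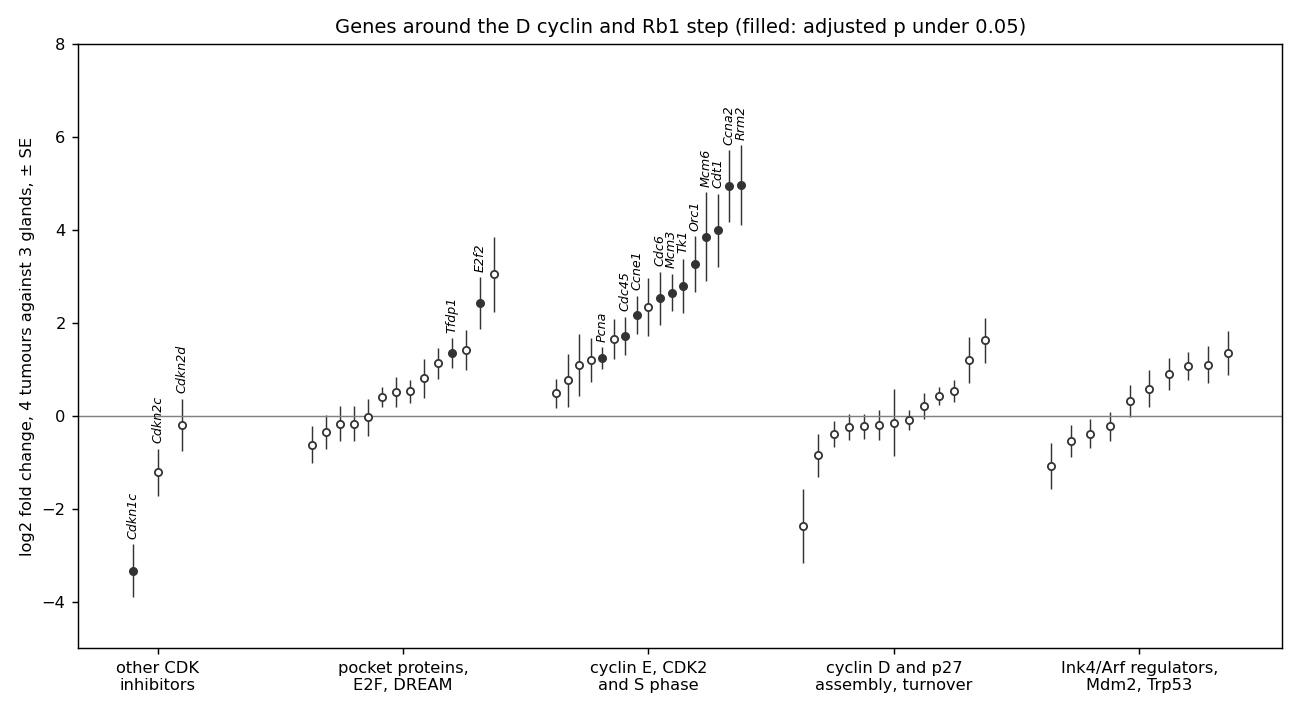
Log2 fold change of 4 tumours against 3 glands with its SE (vertical axis) for each gene of 5 lists around the D cyclin and Rb1 step, ordered within a list; filled points have adjusted p under 0.05. Filled points above 0 stand in the cyclin E, CDK2 and S phase list (11 of 17) and the pocket protein list (2 of 14), and Cdkn1c alone is filled below 0.

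Of the genes near a member, some differed from the glands in its direction. Within 500 kb of the Ccnd1 start, 7 of 12 protein-coding genes were tested. In the papillary tumour 4 of these 7 were over 1 log2 unit above the gland mean: Ano1, a chloride channel gene (log2 2.71), Ppfia1 (1.42), Fadd (1.38) and Oraov1 (1.08). Of all 12713 protein-coding genes tested, 24.4% were that high in this tumour. Oraov1 overlaps Ccnd1 on the opposite strand, so in these unstranded libraries it is not a separate neighbour. It was at 2.83, 7.16 and 6.73 CPM in glands 1, 2 and 3 and at 11.04 CPM in the papillary tumour. Its difference therefore leans on gland 1, the shallowest library. Over 1 log2 unit above the gland mean were 2 of the 7 in tumour 1a (Cttn and Mrgprf), 2 in tumour 1b (Cttn and Tpcn2) and 0 in the spindle cell tumour. Of protein-coding genes, 23.6%, 23.1% and 20.6% were that high in tumours 1a, 1b and 3. The counts of 2 of 7 are near these shares. Mrgprf was low throughout, at 1.34 CPM on average in glands and 1.79 CPM in tumour 1a. In the papillary tumour it was at 0.0348 CPM, -2.37 log2 units from the gland mean.

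Around Rb1, 6 of 8 neighbours were tested. Sucla2, a subunit of succinyl-CoA synthetase, differed from the gland mean of 344.5 CPM by -2.63, -3.28, -3.17 and -3.36 log2 units in tumours 1a, 1b, 3 and 4, and Lpar6 by -1.03 and -1.08 units in tumours 1a and 3. Of protein-coding genes, 16%, 17.6%, 18.9% and 22.7% were over 1 unit lower in these tumours. The other 4 stayed within 1 unit. Lpar6 and Rcbtb2, both among the 6 tested, overlap Rb1 on the opposite strand. In these unstranded libraries they are therefore not separate neighbours. Around Cdk4, 8, 5, 7 and 8 of 22 neighbours tested were over 1 unit higher in tumours 1a, 1b, 3 and 4, among them Shmt2 and B4galnt1 in all 4, where 23.6%, 23.1%, 20.6% and 24.4% of protein-coding genes were. Around Cdk6, no neighbour of 7 was over 1 unit higher in tumours 1a, 1b or 4, and Gatad1 differed by -1.62 units in tumour 1b and -1.01 units in the spindle cell tumour.

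Genes with the pattern most like a member were ranked by the root mean square difference of centred log2 CPM over the 7 libraries, among 8533 genes. Nearest to Ccnd1 were Fam129b (0.54), the flap endonuclease gene Fen1 (0.54) and Oas2 (0.61). Nearest to Ccnd2 were Angptl2 (0.31), the calcium pump gene Atp2b4 (0.39) and Lrrk2 (0.39). Angptl2 was at 44.2 to 121.8 CPM in glands, 129.1 and 58.0 CPM in tumours 1a and 1b, and 5.71 and 3.24 CPM in the spindle cell and papillary tumours. Nearest to Ccnd3 were Selenof (0.11), Tomm5 (0.12) and Eif3e (0.14). Nearest to Cdkn2a were C1qtnf3 (0.80), the fibrillin gene Fbn2 (0.91) and Adamts4 (0.94). Each was highest in tumour 1a, which follows from their choice by likeness. Adamts4 was nearly as high in tumour 1b (47.6 CPM) as in tumour 1a (52.1 CPM).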

How the data were processed

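RNA was sequenced from 3 control glands and 4 tumours. Per the labels' protocols, libraries came from a TruSeq v2 kit and were read as pairs of 75 bases. STAR 2.5, RSEM 1.3, limma and the build GRCm38 appear in the submitters' processing notes, with no role given. The deposited value column is headed TPM, but its sums differ between libraries, so its values were taken to be the authors' expected counts of reads, then rounded to integers. Positions and exon lengths came from GENCODE M21 (GRCm38), in which 50376 of the 50600 deposited genes were found.

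The members and gene lists were chosen with earlier results of these data known. Genes were kept by filterByExpr (minimum count 10, total 15) and tested by edgeR 4.0.16 (R 4.3.3), quasi-likelihood F test, TMM scaling, two-sided, Benjamini-Hochberg over all genes. The SE is the log2 fold change divided by the square root of F. DESeq2 1.42.0, limma-voom (limma 3.58.1), other scalings, filters and left-out libraries were alternatives. The fitting functions were run on simulated counts with known changes. The spread of those counts was set in advance, so that run does not measure how the fits do on these data. Where leaving out a tumour leaves 1 adenosquamous library, it is assumed to vary like the glands. Log2 CPM used a prior count of 2. Single-library differences are from the mean log2 CPM of the glands. Named genes were the 10 members, the smallest p-values of each list in either direction, likeness and neighbour ranks. Other genes, among them Mki67, Ecd and genes overlapping a member, were named outside these rules. Counting floors cover counting error only. Libraries of a group differed well beyond counting noise (chi-square per degree of freedom 85.0 to 374.9), so none was the same library deposited again; this says nothing of a shared animal or tumour.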

Additional observations from a re-analysis of the deposited data

Results flagged for a closer look

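Ccnd1 was far higher in the papillary tumour than in the other tumours. The gap between its 642.1 CPM and the next tumour (174.1 CPM) took 0.832 of the range over the 4 tumours (Dixon's ratio), just above the 95% critical value for 4 samples. On log2 CPM, a scale added after seeing the data, the ratio was 0.625 and did not pass that value. Chance alone marks about 1 group in 20 this way if the 4 values are normal draws from 1 population. These tumours are of different types, so that rate need not hold here, and 10 genes were looked at. The tumour mean of Ccnd1 therefore leans on 1 library. Without it the log2 fold change was 2.99 and still passed in edgeR (adjusted p = 0.0153).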

How the results depend on the processing

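Of the fits of single members under the alternatives, 235 kept direction and side of the threshold, 29 no longer passed, 5 newly passed and 9 turned direction; the cause was not tested. Members passing over 4 tumours were 2, but 4 in DESeq2, and in edgeR 0 with the adenosquamous tumours summed or gland 2 as the only control (3 and 2 at unadjusted p under 0.05), and 0 to 2 with 1 library left out (no fewer than 3 at unadjusted p under 0.05). The counts of single-member fits given first include those of Cdkn2a in the adenosquamous pair, whose call is not counted above. Members passing in the pair were 4, also with Cdkn2a included. With 1 gland left out they were 0 to 4 in edgeR, again with Cdkn2a included (no fewer than 5 at unadjusted p under 0.05). The S phase list (11) gave 6 with no filter, 3 with 10 counts in every library (7 genes tested), 3 with tumours summed, 0 with gland 2 alone (13 at unadjusted p under 0.05) and 0 to 8 with 1 library left out. The pocket protein list (2) gave 5 in DESeq2, in edgeR 0 with no filter, tumours summed or gland 2 alone (5, 5 and 3 at unadjusted p under 0.05), 1 with 10 counts in every library and 0 to 1 with 1 library left out. The other inhibitors (1) gave 0 with gland 2 alone (1 at unadjusted p under 0.05) and 0 to 1 with 1 library left out. All genes passing (1199) were 3520 in DESeq2, 755 with 10 counts in every library, 533 with tumours summed, 0 with gland 2 alone (1655 at unadjusted p under 0.05) and 97 to 1351 with 1 library left out. In the pair (1526) they were 3550 in DESeq2, 2521 with no filter and 0 to 1498 with 1 library left out. Members that turned direction had small values: over 4 tumours Ccnd3 (-0.05) was 0.06 with tumours summed and -0.30 to 0.16 with 1 library left out, and Cdkn1b (0.17) was -0.02 with gland 2 alone and -0.07 to 0.31. In the pair Ccnd2 (0.16) ran from -0.31 to 0.56 and Ccnd3 (-0.27) from -0.73 to 0.12. The Ccnd1 share difference (60.6 percentage points) ran from 54.6 to 68.2 with 1 library left out, that of Ccnd2 from -58.4 to -46.0, of Ccnd3 from -11.1 to -8.52 and of Cdk4 from 1.52 to 22.3. No paired analysis was possible because the replicate numbers only name the libraries and the labels pair no gland with a tumour. Depth limits gland 1, whose 5148436 counts gave 9 counts of Cdk4 and 23 of Ccnd1.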
